A study of Homo sapiens with 6 samples.

Results

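The genes described here are the long intergenic noncoding RNA genes with a numbered LINC symbol that carried reads in MDA-MB-231, a line of triple-negative breast cancer cells. They were chosen by 2 criteria on the deposited table: a gene symbol made of LINC and digits, and raw counts that summed to at least 60 over the 6 libraries. Of 60605 genes in the table, 2138 had such a symbol, and 176 of these met the floor of 60 counts. A further 1407 had no count in any library, and 555 had counts below the floor. Because members were selected on their measured counts, the number of expressed LINC genes is a product of the rule and not a finding.

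The 6 libraries formed 2 groups of 3. The shControl group was MDA-MB-231 cells with a control short hairpin RNA, and the shPUS1 group was the same line with a hairpin against PUS1, which encodes pseudouridine synthase 1, an enzyme that converts uridine to pseudouridine in tRNA and other RNA. Both groups share the parental line, and the study's methods describe stable lentiviral hairpins in the pLKO.1 vector with puromycin selection. The time from infection to harvest and the name of the hairpin in the sequenced cells were not given in the sources used here. The columns of the 3 shPUS1 libraries carry one and the same knockdown label, so an effect of the hairpin on other transcripts and an effect of less PUS1 cannot be told apart. The titles call the libraries biological replicates, but no source used here says that they came from separate infections, and p-values measure only the spread between these libraries.

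Long intergenic noncoding RNAs are transcripts made by RNA polymerase II from loci between protein-coding genes. Most are capped, spliced and polyadenylated like mRNAs but carry no long conserved reading frame, are present at lower levels than mRNAs, and vary strongly between cell types. Some act in cis on neighbouring genes, some act in trans as scaffolds or as binding partners of proteins and microRNAs, and for most no function is established. A number in a LINC symbol is a serial label from the gene nomenclature committee and carries no functional meaning.

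PUS1 itself had 14.5, 27.5 and 12.1 CPM (counts scaled by library total and a trimmed mean factor, TMM) in shControl replicates 1, 2 and 3, and 6.57, 5.47 and 5.37 CPM in shPUS1 replicates 1, 2 and 3. It fell by 1.64 on the log2 scale (SE 0.32, adjusted p = 0.0462 by edgeR's quasi-likelihood test), and its groups did not overlap. Library totals lay between 14241505 and 19625998 counts. The 176 LINC genes held 0.0729 to 0.0921% of all counts in shControl and 0.092 to 0.1057% in shPUS1, with the lowest share in shControl replicate 2. That library stood apart. Its log2 CPM values over the LINC genes had Pearson correlations of 0.786 and 0.793 with the other shControl libraries. The other shControl libraries correlated with each other at 0.937, while pairs of shPUS1 libraries gave 0.948 to 0.951. Over all genes tested, shControl replicate 2 stood apart as well, at 0.9505 and 0.9521, where the other shControl libraries correlated at 0.981. The 6 markers chosen for this line were VIM, CD44, CAV1, AXL, KRT18 and EGFR. All were expressed (summed level 4916 to 6220 CPM in shControl and 3950 to 4189 CPM in shPUS1) and none passed the threshold. Of 8 markers of luminal breast cells, ESR1, PGR, FOXA1 and TFF1 were too low to test, none of the other 4 passed, and the summed level was 168 to 260.9 CPM in shControl and 151.3 to 177.7 CPM in shPUS1, most of it KRT19.

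The LINC label was compared with the GENCODE release 29 annotation of GRCh38, which held all 176 genes on the same chromosome at overlapping positions, 89 of them with the same start and end. That release classed 138 as lincRNA and 18 as processed transcripts. It classed 5 as antisense RNAs, 2 as sense intronic, 1 as sense overlapping, 2 as RNAs from a bidirectional promoter and 7 as transcribed pseudogenes. It classed LINC02694, LINC02693 and LINC00672 as protein-coding, the first under the older symbol C15orf53. By position in the deposited table, 153 of the 176 overlapped no protein-coding gene. Of the others, 11 overlapped one on the same strand and 13 overlapped one on the opposite strand, 1 of these on both. The set is therefore called LINC genes here, since not every member is intergenic. The strandedness of the counts was not given in the sources used here, so reads of a LINC gene and of an overlapping gene cannot be told apart. A further 11 members shared at least 20% of their 100-base stretches with other genes, LINC02085 (91.5%) and LINC01106 (81.1%) the most, and their levels are uncertain.

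LINC genes were weakly expressed. Per length, the median of the mean FPKM (fragments per kilobase of exon, scaled to library size) was 0.509 over the 176 members, against 5.88 over 12605 protein-coding genes tested. Mean FPKM reached 1 in 55 members and was under 0.1 in 3. The median exonic length was 3975 bases, against 5315 for the protein-coding genes tested. Raw counts had a median sum of 185 over the 6 libraries and a highest sum of 7355, for LINC00472. The median coefficient of variation between replicates of the members tested was 36.5% in shControl and 18.4% in shPUS1, against 22.1% and 8.42% over all genes tested.

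In the comparison of shPUS1 with shControl cells, 6 LINC genes passed the threshold of an adjusted p under 0.05 and a log2 fold change of at least 1 in size. LINC02694, LINC02474, LINC02009, LINC00862 and LINC02331 rose, and LINC00467 fell. Of the 176 members, 174 passed the filter on low counts and were tested, and LINC00824 and LINC02604 were not. The 5 that rose were 2.87% of the members tested, where 0.888% of all 14748 genes tested rose. The 1 that fell was 0.575%, where 0.481% of all genes fell. In bulk RNA, a change in the share of cells that make a transcript and a change in its amount per cell cannot be told apart. Of the 5 that rose, LINC02694, LINC02474 and LINC00862 had 1, 10 and 29 counts in all of shControl and met the floor of 60 through shPUS1, so the count of rises is given as a description.

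**Figure D1:**
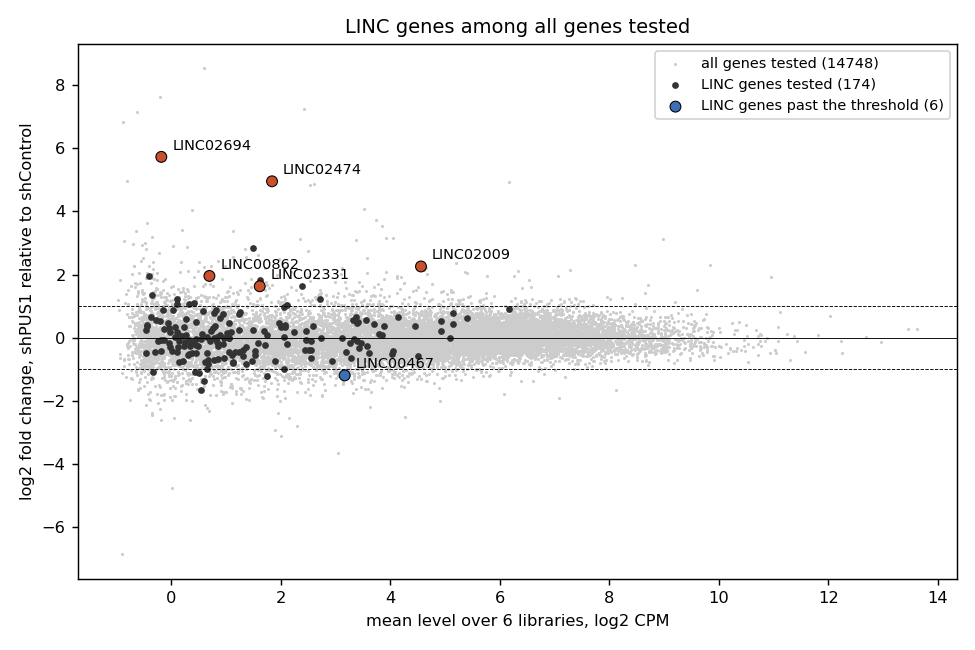
Log2 fold change of shPUS1 relative to shControl (y axis) against the mean level in log2 CPM over the 6 libraries (x axis), for all 14748 genes tested (grey) and the 174 LINC genes tested (black). Large points mark the 6 LINC genes past the threshold, orange for higher and blue for lower, dashed lines mark log2 fold changes of 1 and -1, and most LINC genes sit at the low end of the x axis.

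Signs were balanced over the members. Shares of separated groups and of small unadjusted p were near those of all genes on the positive side. On the negative side they were below those of all genes. Log2 fold changes were positive in 87 and negative in 87 of the 174 tested, with a median of -0.0008 against -0.034 over all genes. In 34 members (19.5%) every shPUS1 library lay above every shControl library, where this held for 18.8% of all genes. In 17 members (9.77%) every shPUS1 library lay below, against 17.3% of all genes, and in 123 the groups overlapped. At an unadjusted p under 0.05, 21 members (12.1%) were higher and 11 (6.32%) lower, against 12.6% and 12.8% of all genes. Without shControl replicate 2, which is described further on, these counts were 21 higher and 26 lower of 175 members tested. Such p-values became more frequent over all genes as well. In that fit 5219 of 15130 genes had one, in either direction. With all 6 libraries, 1863 genes were higher and 1895 lower of 14748. The 5219 genes were not divided by direction, so the 26 lower members have no background of their own. A log2 fold change of at least 1 in size was seen in 24 members, 16 positive and 8 negative. This is 13.8% of those tested against 6.47% of all genes. The floor admits members through the group where they are high. Under 30 counts were held by 14 members in shControl and by 4 in shPUS1, so the counts by sign are a description. The median SE of a log2 fold change was 0.392 for members and 0.21 for all genes, and the median level was 0.99 log2 CPM against 4.57. Libraries were simulated with each gene's mean level and the same spread in both groups. In these, the test recovered 13 of 40 members changed by 1.5 on the log2 scale and 38 of 40 members changed by 3. Changes of the smaller size were thus often missed there. The real groups differed in spread and shControl replicate 2 stood apart, and neither was simulated. Recovery in the real libraries may therefore differ.

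LINC02009 was the most abundant of the genes that rose. It lies on the minus strand of chromosome 3 from 46416524 to 46423591 in 5 exonic blocks, beside the chemokine receptor gene CCRL2, and overlaps no annotated gene. Its level was 10.9, 4.51 and 9.06 CPM in shControl replicates 1, 2 and 3, and 35.4, 42.8 and 38.0 CPM in shPUS1 replicates 1, 2 and 3. Every shPUS1 library was more than 3 times as high as every shControl library. The log2 fold change was 2.26 (SE 0.30, adjusted p = 0.0248 by edgeR). Counts were 2061 in shPUS1 and 385 in shControl. Scaled for library size, their ratio was 4.93, with a 95% interval of 4.42 to 5.52 from counting error alone.

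LINC02474 went from near absence to a moderate level. This gene of 4 exonic blocks lies on the plus strand of chromosome 1 from 221966341 to 221984964 and overlaps LINC02257 on the opposite strand. It had 0.131, 0.105 and 0.409 CPM in shControl replicates 1, 2 and 3, and 6.01, 7.39 and 6.49 CPM in shPUS1 replicates 1, 2 and 3. The log2 fold change was 4.95 (SE 0.45, adjusted p = 0.00756 by edgeR), the smallest adjusted p among the members. The 3 shControl libraries held 10 counts together and the shPUS1 libraries 353. Scaled for library size, the ratio was 32.5 with a 95% counting interval of 17.5 to 68.5.

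LINC02694 was the extreme case at low level. It spans chromosome 15 from 38628005 to 39180499 on the plus strand, a region in which 5 other noncoding or pseudogene loci are annotated on both strands. It had 0.0655, 0 and 0 CPM in shControl replicates 1, 2 and 3, and 1.67, 1.26 and 1.48 CPM in shPUS1 replicates 1, 2 and 3. A single read in shControl stood against 78 in shPUS1. Scaled for library size, the ratio was 71.9 with a 95% counting interval of 12.5 to 2876. The fitted log2 fold change of 5.73 (adjusted p = 0.0229 by edgeR) depends on the default prior count of the fit and is no bound. Its mean FPKM of 0.0867 was the lowest of all 176 members.

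LINC00862 and LINC02331 rose by smaller amounts. LINC00862, on the minus strand of chromosome 1 from 200253419 to 200400705, had 0.72, 0.367 and 0.749 CPM in shControl replicates 1, 2 and 3, and 2.28, 2.79 and 2.01 CPM in shPUS1 replicates 1, 2 and 3. The groups did not overlap, and the log2 fold change was 1.96 (SE 0.39, adjusted p = 0.0467 by edgeR). LINC02331, on the minus strand of chromosome 14 from 53685139 to 53850882, had 1.44, 1.47 and 1.36 CPM in shControl replicates 1, 2 and 3, and 3.62, 4.98 and 4.66 CPM in shPUS1 replicates 1, 2 and 3. Its shControl libraries were nearly equal, replicate 2 included, and the log2 fold change was 1.63 (SE 0.27, adjusted p = 0.0341 by edgeR).

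LINC00467 was the member that fell. It lies on the plus strand of chromosome 1 from 211382736 to 211435570, next to TRAF5, and contains the pseudogene SNX25P1 on its own strand. Its level was 11.9, 14.9 and 10.2 CPM in shControl replicates 1, 2 and 3, and 5.29, 5.25 and 5.61 CPM in shPUS1 replicates 1, 2 and 3. The lowest shControl library was well above the highest shPUS1 library. It fell by 1.20 on the log2 scale (SE 0.21, adjusted p = 0.0383 by edgeR), with 616 counts in shControl and 286 in shPUS1. Taken singly, each of the 6 genes gave p = 0.1 in a two-sided exact permutation test over libraries, the smallest value that 3 against 3 libraries allow.

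**Figure D2:**
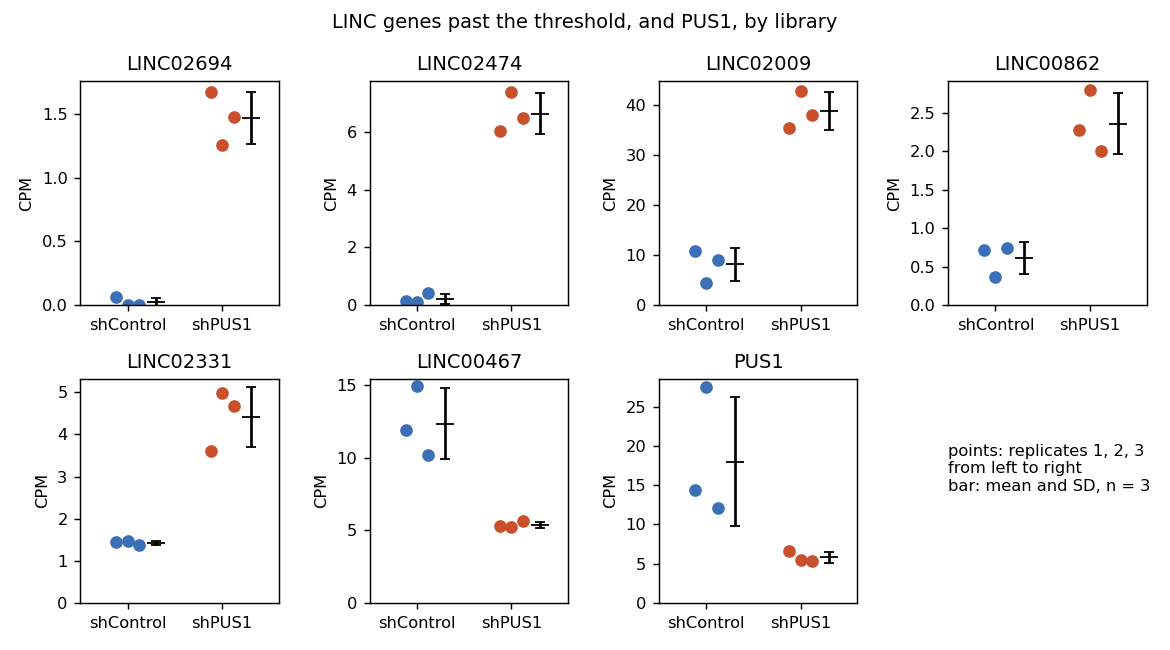
Level in CPM (y axis, starting at 0, a scale of its own for each panel) of the 6 LINC genes past the threshold and of PUS1 in the 3 shControl (blue) and 3 shPUS1 (orange) libraries, with the mean and SD beside the points. No panel shows overlap between the groups; for LINC02009, shControl runs from 4.51 to 10.9 and shPUS1 from 35.4 to 42.8.

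The 6 calls depended on which libraries entered the fit. Without shControl replicate 2, all 5 rises and the fall were kept and the counts became 8 rises and 5 falls. Calls over all genes grew as well in that fit, to 1.63% that rose and 1.66% that fell, from 0.888% and 0.481%. Without shControl replicate 1, shPUS1 replicate 2 or shPUS1 replicate 3, no member passed, at smallest adjusted p of 0.0546, 0.0714 and 0.061 by edgeR, and at most 0.0726% of all genes tested still rose.

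The RefSeq promoter table (GRCh38.p14, 250 bases before to 50 bases after a gene's start) held 121 of the 176 members. Of the 6 genes past the threshold, it held LINC02009, LINC02694 and LINC00862, whose windows are shown because these genes rose. Capitals mark matches to 6 motifs searched on both strands. These were the TATA box with the letters TATAAA, the AP-1 site with TGANTCA, the cyclic AMP response element with TGACGTCA, the core of the antioxidant response element with TGACNNNGC, the box named by its letters CCAAT, and the GC box with GGGCGG. LINC02009 held 1 AP-1 match, in a window at chr3:46423618-46423917, minus strand, whose start is 76 bases from that of the deposited table. LINC02694 held 1 AP-1 match and 1 CCAAT match on the reverse strand, in a window at chr15:38696348-38696647, plus strand, whose start lies 68593 bases inside the gene as the deposited table draws it. LINC00862 held no match, in a window at chr1:200373743-200374042, minus strand, 26913 bases from the start in the deposited table.
LINC02009: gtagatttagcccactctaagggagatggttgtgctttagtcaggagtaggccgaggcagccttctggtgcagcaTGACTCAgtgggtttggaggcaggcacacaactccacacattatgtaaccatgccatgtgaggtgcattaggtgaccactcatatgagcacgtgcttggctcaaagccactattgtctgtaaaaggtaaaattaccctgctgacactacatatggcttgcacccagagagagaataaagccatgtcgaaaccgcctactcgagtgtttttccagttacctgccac
LINC02694: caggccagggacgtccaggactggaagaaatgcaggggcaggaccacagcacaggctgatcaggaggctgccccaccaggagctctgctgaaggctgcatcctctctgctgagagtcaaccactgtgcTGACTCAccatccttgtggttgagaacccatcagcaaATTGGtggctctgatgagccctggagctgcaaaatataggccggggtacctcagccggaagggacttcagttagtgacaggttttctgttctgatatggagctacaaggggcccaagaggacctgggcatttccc
LINC00862: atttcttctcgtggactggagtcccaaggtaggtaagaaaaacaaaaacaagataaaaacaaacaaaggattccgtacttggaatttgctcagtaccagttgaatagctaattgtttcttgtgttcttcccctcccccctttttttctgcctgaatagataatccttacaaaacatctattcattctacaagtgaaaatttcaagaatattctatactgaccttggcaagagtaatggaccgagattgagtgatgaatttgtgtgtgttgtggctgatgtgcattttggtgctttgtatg
A match is a stretch of letters and does not show that a factor binds there. Over all 121 members in the table, AP-1 letters were present in 22 windows (18.2%), against 7.71% of all 35116 promoters, antioxidant response element cores in 22.3% against 13.3%, and TATA boxes in 16.5% against 11.5%. CCAAT boxes were present in 41.3% against 34.6%, cyclic AMP response elements in 2.48% against 1.85%, and GC boxes in 33.1% against 45%. A stretch can match both the AP-1 and the antioxidant response element letters, and the member windows had a median GC content of 52% against 58.7%, so the shares describe the windows and were not tested.

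Several members lay apart between the groups without passing the threshold. The largest positive values were in LINC01583, with 0.916, 0 and 1.09 CPM in shControl replicates 1, 2 and 3, and 4.90, 5.69 and 3.48 CPM in shPUS1 replicates 1, 2 and 3 (log2 fold change 2.85, SE 0.79, adjusted p = 0.0879 by edgeR). LINC02615, a gene of low level, had 0.458, 0.105 and 0.204 CPM against 1.00, 1.20 and 0.767 CPM in the same order (1.96 on the log2 scale, adjusted p = 0.0908 by edgeR). In both, the lowest library was shControl replicate 2.

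LINC01203 and LINC02154 are neighbours on the short arm of the X chromosome, 30500 bases apart on opposite strands, and had like values. LINC01203 had 1.64, 0.105 and 2.18 CPM in shControl replicates 1, 2 and 3, and 4.12, 4.27 and 5.37 CPM in shPUS1 replicates 1, 2 and 3 (log2 fold change 1.84, adjusted p = 0.161 by edgeR). LINC02154 had 4.32, 0 and 3.13 CPM, and 7.57, 7.94 and 7.56 CPM, in the same order (log2 fold change 1.65, adjusted p = 0.286 by edgeR). Both were near or at 0 in shControl replicate 2 alone. Without that library, LINC01583, LINC01203 and LINC02154 passed the threshold, at log2 fold changes of 2.21, 1.26 and 1.03 and adjusted p of 0.00414, 0.014 and 0.0102 by edgeR.

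On the negative side, 7 members whose groups did not overlap had the largest changes after LINC00467 was set aside. LINC01505 had 3.14, 0.839 and 2.32 CPM in shControl replicates 1, 2 and 3, and 0.668, 0.711 and 0.59 CPM in shPUS1 replicates 1, 2 and 3 (log2 fold change -1.65, adjusted p = 0.108 by edgeR). Its shControl replicate 2 was the shControl library nearest to shPUS1, and without it the gene passed at -2.05 (adjusted p = 0.00611 by edgeR). LINC01085, which GENCODE classes as a transcribed pseudogene, had 5.04, 6.92 and 4.22 CPM against 2.62, 2.57 and 2.89 CPM (log2 fold change -1.004, adjusted p = 0.0791 by edgeR). LINC01547 (-1.36), LINC02188 (-1.10), LINC00638 (-1.09), LINC02783 (-0.84) and LINC00526 (-0.79) were all below 3 CPM in every library, with adjusted p from 0.16 to 0.298 by edgeR.

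The library shControl replicate 2 was low in many members. It was the lowest of the 6 libraries in 49.4% of the members tested and the highest in 21.8%, against 32.1% and 34.4% of all genes tested. In 12 members (6.9%) every other library was more than 4 times as high as it was, against 2.03% of all genes, and in none was it above 4 times every other library. Among the 12, LINC01203, LINC02154, LINC01583, LINC02725 and LINC02669 had all shPUS1 libraries above shControl. The others were LINC01277, LINC00513, LINC01812, LINC02475, LINC00622, LINC02616 and LINC02019, whose groups overlapped. LINC02475 was the most abundant of these, with 12.9, 2.15 and 11.3 CPM in shControl replicates 1, 2 and 3, and 10.9, 12.6 and 12.8 CPM in shPUS1 replicates 1, 2 and 3. Here only shControl replicate 2 was low, and the log2 fold change was 0.47 (SE 0.53, adjusted p = 0.602 by edgeR). The part of this library in the result for these genes was not tested beyond leaving it out.

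**Figure D3:**
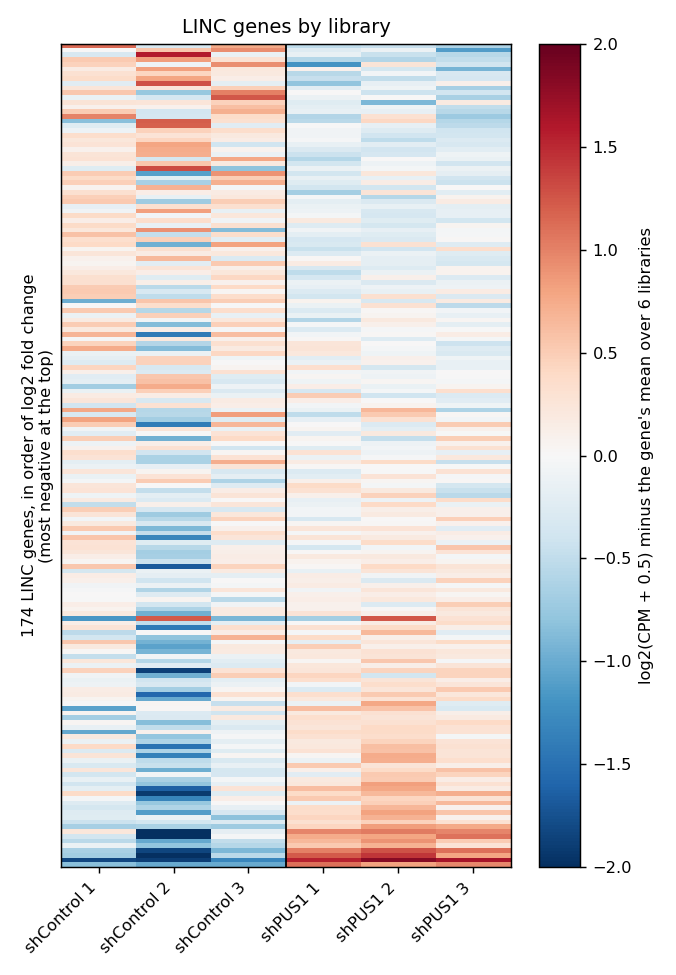
Colour shows log2(CPM + 0.5) minus the gene's mean over the 6 libraries for each of the 174 LINC genes tested (rows, ordered by log2 fold change with the most negative at the top) in each library (columns), and values beyond 2 or -2 take the end colour. The shControl 2 column carries the strongest colours, mostly blue, and it was the lowest library in 49.4% of the rows.

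Of the 10 members with the highest levels per length, LINC02009 was the only one past the threshold. LINC01357 had the highest mean FPKM, 8.24 ± 1.87 in shControl and 8.12 ± 1.70 in shPUS1 (SD, n = 3), with overlapping groups and a log2 fold change of -0.01 (adjusted p = 0.984 by edgeR). LINC02009 came next because of its shPUS1 libraries, at 2.80 ± 1.18 and 13.0 ± 1.34 FPKM (SD, n = 3). LINC01605 had 6.69 ± 0.82 and 6.42 ± 0.66 FPKM (SD, n = 3) for the entry ENSG00000253161. Its symbol appeared for a second, overlapping entry, so its reads may be divided between the entries.

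Among the others of the 10, LINC00565 and LINC01224 were higher in every shPUS1 library, without passing. LINC00565 had 4.24, 5.43 and 5.54 FPKM in shControl replicates 1, 2 and 3, and 6.69, 6.97 and 6.60 FPKM in shPUS1 replicates 1, 2 and 3 (log2 fold change 0.44, adjusted p = 0.13 by edgeR). LINC01224 had 3.88, 2.89 and 3.56 FPKM against 4.96, 5.65 and 5.19 FPKM (0.64 on the log2 scale, adjusted p = 0.0693 by edgeR). LINC00294, which overlaps the coding genes TCP11L1 on its own strand and CSTF3 on the other, was lower in every shPUS1 library, at 5.92, 5.40 and 5.91 FPKM against 3.99, 4.52 and 4.10 FPKM (log2 fold change -0.42, adjusted p = 0.126 by edgeR).

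LINC00973 and LINC01116, a gene beside the HOXD cluster, were highest in shControl replicate 2, as were 21.8% of the members tested. LINC00973 had 3.33, 9.53 and 5.40 FPKM in shControl replicates 1, 2 and 3, against 5.05 to 6.10 FPKM in shPUS1. LINC01116 had 5.26, 9.43 and 5.01 FPKM against 4.26 to 4.95 FPKM. In LINC00601 and LINC02535 the same library was the lowest shControl one, at 3.62 and 2.70 FPKM, and the groups overlapped. Neighbours in the order of mean FPKM, from 8.18 down to 4.28, overlapped over the 6 libraries.

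**Figure D4:**
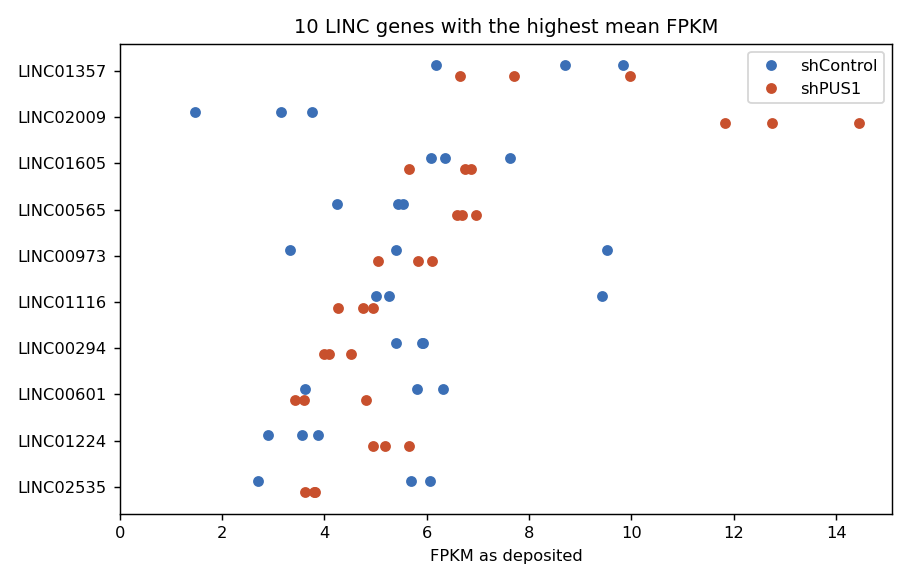
FPKM as deposited (x axis, starting at 0) in the 3 shControl (blue) and 3 shPUS1 (orange) libraries for the 10 LINC genes with the highest mean FPKM, from LINC01357 (8.18) to LINC02535 (4.28). Points of LINC02009 are far apart between the groups, and single shControl points of LINC00973 and LINC01116 near 9.5 FPKM are replicate 2.

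By counts and not by length, LINC00472 was the largest member. It was singled out after its values were seen, as was LINC02577. LINC00472 had 51.1, 38.5 and 59.4 CPM in shControl replicates 1, 2 and 3, and 78.3, 118.5 and 82.3 CPM in shPUS1 replicates 1, 2 and 3 (log2 fold change 0.91, adjusted p = 0.0638 by edgeR). LINC02577 had 4.78, 2.41 and 4.497 CPM against 7.62, 10.6 and 8.79 CPM (1.22 on the log2 scale, adjusted p = 0.0673 by edgeR). In both, every shPUS1 library was above every shControl library.

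Some lincRNAs act on the gene beside them, and the nearest tested protein-coding gene within 100 kb was therefore looked up for each member. There were 122 members with such a gene, 119 distinct genes in all, and none of these passed the threshold, where 0.888% of all genes tested rose and 0.481% fell, so that few would pass among any 119 genes. CCRL2, an atypical chemokine receptor gene 3527 bases from LINC02009, had 0.28 on the log2 scale (adjusted p = 0.318 by edgeR). TRAF5, an adaptor of tumour necrosis factor receptors 7790 bases from LINC00467, had -0.04 (adjusted p = 0.897). ZNF281, a zinc finger transcription factor 4235 bases from LINC00862, had 0.11 (adjusted p = 0.605). BMP4, a secreted bone morphogenetic protein 98854 bases from LINC02331, had 1.15 (adjusted p = 0.0575 by edgeR), in the direction of its neighbour. LINC02474 and LINC02694 had no tested coding gene within that distance.

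Across the 122 pairs, the log2 fold changes of a LINC gene and its neighbour had a Pearson correlation of 0.24 and a Spearman correlation of 0.291, and 75 pairs had the same sign. This is a description across genes, whose points share the 6 libraries, and 19 of the neighbours overlap the LINC gene. In 9 pairs the genes lie on opposite strands with starts within 1000 bases, as in a shared promoter region. There, 8 of 9 pairs had the same sign, with Pearson and Spearman correlations of 0.604 and 0.517. The largest was LINC01547 with FAM207A, at -1.36 and -0.25. The pair farthest from the others was LINC01123 with MALL, at 0.51 and -2.92 (adjusted p = 0.0519 for MALL by edgeR), and it was singled out after its values were seen.

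**Figure D5:**
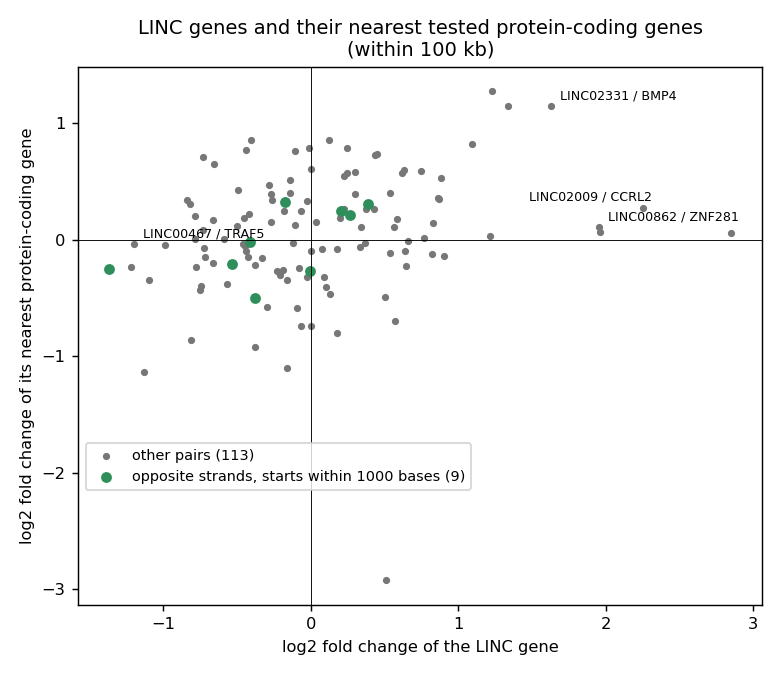
Log2 fold change of each LINC gene (x axis) against that of its nearest tested protein-coding gene within 100 kb (y axis) for 122 pairs, with the 9 pairs on opposite strands and with starts within 1000 bases in green. Pairs of genes past the threshold are labelled, and their coding genes lie from -0.04 (TRAF5) to 1.15 (BMP4).

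Members that lie within 100 kb of each other formed 11 pairs, listed by position. Besides LINC02154 and LINC01203, the pairs on opposite strands that overlap included LINC01117 and LINC01116 (-0.46 and -0.49), LINC01270 and LINC01271 (-0.56 and -0.52), LINC00526 and LINC00667 (-0.79 and -0.59) and LINC00452 and LINC00565 (0.65 and 0.44). In these pairs both log2 fold changes had the same sign. LINC01356 and LINC01357 (0.25 and -0.01) and LINC02228 and LINC02211 (-0.46 and 0.35) had opposite signs. Without strand, reads from overlapping partners cannot be told apart.

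Long noncoding RNAs with trivial names, which are not LINC genes by symbol, were set beside the members. Of a list of 46, 45 were in the table and 30 were tested, 1 rose and 1 fell, where 0.888% of all genes tested rose and 0.481% fell. At an unadjusted p under 0.05 by edgeR, 2 of the 30 were higher and 9 of the 30 lower, against 12.6% and 12.8% of all genes. The 9 were GAS5, SNHG1, SNHG8, SNHG12, SNHG15, SNHG29, CRNDE, MIR17HG and MIR210HG. Those with an SNHG symbol are small nucleolar RNA host genes, so the list mixes classes. The median log2 fold change was -0.28 against -0.034 over all genes. UCA1, a long noncoding RNA first described in bladder cancer, had 3.34, 0.839 and 2.32 CPM in shControl replicates 1, 2 and 3, and 17.7, 17.0 and 19.8 CPM in shPUS1 replicates 1, 2 and 3. It rose by 3.08 on the log2 scale (SE 0.42, adjusted p = 0.0248 by edgeR). MIR210HG, the host transcript of the hypoxia-induced microRNA miR-210, had 10.9, 4.72 and 9.13 CPM against 2.62, 2.30 and 2.60 CPM, and fell by 1.72 on the log2 scale (SE 0.33, adjusted p = 0.046 by edgeR). SNHG8, a host of small nucleolar RNA, passed on p but not on size (log2 fold change -0.87, adjusted p = 0.049 by edgeR).

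Nuclear levels of many noncoding transcripts are limited by the RNA exosome and its adaptors, which degrade or trim them, and by factors that end their transcription. All 31 genes of a list of these factors were tested and none passed, where 0.888% of all genes tested rose and 0.481% fell. At an unadjusted p under 0.05, 3 were higher and 6 lower, against 12.6% and 12.8% of all genes, so neither count says anything particular of the list. The median log2 fold change was -0.23 against -0.034 over all genes. The smallest p belonged to 2 exosome core subunits. EXOSC9 had 76.5, 86.2 and 62.0 CPM in shControl replicates 1, 2 and 3, and 44.96, 43.3 and 50.9 CPM in shPUS1 replicates 1, 2 and 3 (log2 fold change -0.69, adjusted p = 0.0575 by edgeR). EXOSC5 had 24.9, 27.0 and 20.3 CPM against 13.8, 14.7 and 15.9 CPM (-0.70 on the log2 scale, adjusted p = 0.0618 by edgeR). The groups overlapped in neither gene, with shPUS1 the lower one, and their part in the levels of the LINC genes was not tested.

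At the floor of the rule, the members just inside were LINC01111, LINC00211 and LINC01277, with 61, 62 and 62 counts over the 6 libraries. The LINC genes just outside were LINC02869 and LINC00659, with 58 each, and LINC00243, with 59. The 18 members with under 30 counts in one group, 14 of them in shControl and 4 in shPUS1, met the floor through the other group.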

How the data were processed

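Poly(A) RNA of MDA-MB-231 cells was sequenced in 6 libraries, 3 shControl and 3 shPUS1. Per the submitters' processing notes reads were aligned with HISAT2 and counted with HTSeq 0.6.1. The genome build, annotation release, strand setting and treatment of multiply mapped reads are not given in the sources used here. The authors deposited estimated counts per gene without normalization, some of them not whole, and FPKM values made from them per kilobase of exon and per library total. Of the members' nonzero counts, 24.4 to 30.7% per library were not whole.

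Counts were rounded and filtered with filterByExpr, which uses the groups, then normalized by TMM. The test was the quasi-likelihood F-test of edgeR 4.0.16, run under R 4.3.3 over all 14748 genes kept, with Benjamini-Hochberg adjustment. Its fold changes used the default prior count of that function. The log2 CPM values behind the library correlations and residuals used a prior count of 2. Alternatives used limma 3.58.1 and DESeq2 1.42.0. Tables and figures used pandas 2.3.3, matplotlib 3.10.9, scipy 1.17.1 and numpy 2.4.6 under Python 3.11.15. Positions and levels are those of the deposited table. Overlaps between genes were found from these positions. Gene types, protein-coding status and exonic blocks came from GENCODE release 29, and promoters from RefSeq. The test was checked on simulated data, made for the comparison of shPUS1 with shControl over 14748 genes with the same spread in both groups. At a true log2 change of 1.5 it found 132 of 200 changed genes and 16 that had not changed, and at 3 it found 195 of 200 and 12. Ratios of counts were scaled for library size, so they differ from the plain quotients of the counts. Their intervals cover counting error alone.

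The members, lists and rule for naming genes were chosen with earlier results of these data known. Named were members past the threshold, the 10 with the highest mean FPKM, the 8 largest changes each way whose groups did not overlap, the 3 genes on each side of the floor, the nearest coding genes, and list genes past the threshold or with the smallest p. LINC genes that fall in a small count were named as well.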

Additional observations from a re-analysis of the deposited data

How the results depend on the processing

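The number of LINC genes past the threshold depended on the processing. The median log2 fold change of the members was -0.0008 as reported and lay between -0.0545 and 0.1055 in the alternatives. No move exceeded the spread of that median between libraries (SD 0.153). That spread is wide beside these values, so staying within it is a weak criterion. Against 5 rises and 1 fall, rises were 8 without a filter on low counts and 8 by limma voom with sample weights, 12 at an unadjusted p with the fold minimum, and 1 among members with at least 600 counts. Falls were 2 by DESeq2, 4 by limma voom and 5 at an unadjusted p with the fold minimum. Over all genes, limma voom called 1.91% higher and 1.76% lower. The fit without a filter called 1.08% of all genes higher and 0.9% lower, and DESeq2 called 0.922% and 0.889%. With each library left out in turn, rises ranged from 0 to 8 and falls from 0 to 5. Without shControl replicate 1 there were 0 of each, with 19 members higher and 9 lower at an unadjusted p under 0.05. Leaving out shPUS1 replicate 2 gave 0 of each, with 13 and 9, and leaving out shPUS1 replicate 3 gave 0 of each, with 15 and 6. Without shControl replicate 3, 3 rises and 1 fall were kept, and without shPUS1 replicate 1, 1 rise and 0 falls, with 16 and 6 by unadjusted p. Of all genes tested, 1.09% rose and 0.47% fell without shControl replicate 3. Unadjusted p under 0.05 by edgeR, in either direction, was reached by 3750 of 15144 genes without shControl replicate 1. Without shPUS1 replicates 1, 2 and 3, it was reached by 2215 of 15142, 2112 of 15082 and 2581 of 15226 genes. Without shControl replicate 2, the falls added were LINC00173, LINC00824, LINC01355 and LINC01505. Fewer libraries enter these fits, and the cause was not tested further. DESeq2 gave no adjusted p for LINC02694 and 6 other named members. LINC02474 passed in 9 of 12 alternatives, LINC02009 and LINC00467 in 7 of 12, LINC02331 in 6 of 12, LINC00862 in 5 of 12 and LINC02694 in 6 of 11, with adjusted p up to 0.0714, 0.184, 0.244, 0.227, 0.253 and 0.178 in the alternatives.

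Log2 fold changes changed sign in 4 named members, at -0.10 (LINC00973), 0.39 (LINC01277), -0.04 (LINC01605) and -0.01 (LINC01357) as reported, none past the threshold in any alternative. LINC00973 was 0.49 by limma voom and from -0.41 without shControl replicate 1 to 0.42 without shControl replicate 2. LINC01277 was -0.28 by limma voom and from -0.20 without shControl replicate 2 to 1.29 without shControl replicate 1. LINC01605 was 0.070 by limma voom, and ranged from -0.13 without shControl replicate 3 through 0.048 without shPUS1 replicate 2 to 0.087 without shControl replicate 2. LINC01357 ranged from -0.20 without shControl replicate 3 through 0.015 without shControl replicate 1, 0.032 without shPUS1 replicate 2 and 0.11 without shPUS1 replicate 1 to 0.16 without shControl replicate 2.

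Residuals from the group means correlated at -0.053, -0.026 and -0.19 between same-numbered libraries, and at -0.098 to 0.138 between differently numbered ones. Same-numbered libraries were thus not the more alike. Such residuals cancel within each gene and group, so these values depend on one another and do not settle whether libraries were paired. With the replicate number as a block, 1 rise (LINC02474) and 0 falls passed, where 0.122% of all genes tested rose and 0% fell. At an unadjusted p under 0.05 by edgeR, 18 members were higher and 4 lower. Over all 14748 genes tested, 2815 had such a p in either direction. LINC00973 had a log2 fold change of 0.029 with the block.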
